A study of Homo sapiens with 22 samples.

Results

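The 10 genes described here encode proteins that intestinal goblet cells and related secretory cells release into mucus, or that fold those proteins. They were chosen by symbol: the trefoil peptide genes TFF1, TFF2 and TFF3, then AGR2, REG4, SPINK4, FCGBP, ZG16, CLCA1 and LYZ. Each symbol matched 1 row in each deposited gene table, so 10 of 58870 genes were followed in the siRNA tables and 10 of 57820 in the actinomycin D tables. All 10 passed the filter on low counts in both fits.

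The study addressed how the RNA-binding protein Staufen1 bears on FOXA1 mRNA, and its 22 RNA-seq libraries fall into 8 groups from the colorectal cancer lines LS180 and HCT116. LS180 cells, from a mucin-producing colorectal adenocarcinoma, received an siRNA against STAU1 (siSTAU1, n = 2) or a control siRNA (siCTRL, n = 2) in a pair of consecutive 72 h transfections. The 4 siRNA libraries were polyA-selected. For the decay experiment LS180 cells and HCT116 cells, another colorectal carcinoma line, were kept in 5 µg/ml of the transcription inhibitor actinomycin D for 0, 2 or 4 h (n = 3 in each of the 6 groups). The 18 actinomycin D libraries were made from total RNA and carried no siRNA label. Each line is a single established line. Separate cultures behind the replicates are not stated in the labels, so the p-values cover library-to-library spread alone, part or all of which may be technical.

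Goblet cells make the gel that covers the gut epithelium, and most of its mass is mucin packed in the cell together with small secreted peptides. Trefoil peptides are short, disulfide-bonded proteins stored with mucins, and AGR2 is a disulfide isomerase of the endoplasmic reticulum that mucin processing needs in mice. REG4 and ZG16 are secreted lectins, FCGBP is a large mucus protein with von Willebrand type D domains, and CLCA1 is a secreted protease that cleaves MUC2. SPINK4 belongs to a family of serine protease inhibitors. LYZ encodes lysozyme, which Paneth cells and myeloid cells also make. FOXA factors and SPDEF are transcription factors of this secretory lineage.

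Library totals ran from 23730047 to 26658699 expected counts in the siRNA experiment and from 47842278 to 61417810 in the actinomycin D experiment. STAU1, the targeted gene, stood at 9.70 and 9.17 CPM in the siSTAU1 libraries, against 144 and 141 CPM in the siCTRL libraries. CPM here are counts scaled to a common library size corrected by TMM factors. All 10 colorectal epithelial markers had counts in every LS180 group, while CDX1 and CEACAM5 of those 10 were at 0 in all HCT116 libraries. Of 12 immune markers, 4 had counts in siSTAU1 and 5 in siCTRL libraries, with summed levels of 3.89 to 4.62 CPM in siSTAU1 and 2.88 to 3.21 CPM in siCTRL libraries, mostly CD14. The macrophage and leukocyte genes AIF1, CD163, SPI1 and TYROBP were at 0 in both groups. The 6 fibroblast markers summed to 15.3 to 16.8 CPM in siSTAU1 and 4.72 to 5.13 CPM in siCTRL libraries, with COL1A2 at 0 in both. Of the 6 Paneth markers 5 had counts in both groups, with REG3A at 0. The 4 endothelial markers summed to 2.05 to 3.37 CPM in siSTAU1 and 2.42 to 3.32 CPM in siCTRL libraries, with CDH5 at 0 in siSTAU1 and PECAM1 at 0 in siCTRL libraries. The 7 enteroendocrine markers summed to 0.643 to 0.882 CPM in siSTAU1 and 0.701 to 0.794 CPM in siCTRL libraries, with CHGB, NEUROD1, PYY and SCG3 at 0 in both. The part of these markers in the results below was not tested.

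RefSeq's promoter table (GRCh38.p14) held 5 of the 10 genes: AGR2, REG4, SPINK4, FCGBP and CLCA1. The 250 bases before the RefSeq start of 4 of them are shown, because AGR2, REG4 and SPINK4 were among the higher genes under siSTAU1 and CLCA1 had the lowest fold change of the 10. Capitals mark matches to the forkhead motifs TGTTTAC and TATTTAC or to the CDX motif TTTATNG, searched on both strands. The windows are chr7:16805000-16805249 (AGR2, minus strand), chr1:119811461-119811710 (REG4, minus strand), chr9:33239917-33240166 (SPINK4, plus strand) and chr1:86468677-86468926 (CLCA1, plus strand).
AGR2: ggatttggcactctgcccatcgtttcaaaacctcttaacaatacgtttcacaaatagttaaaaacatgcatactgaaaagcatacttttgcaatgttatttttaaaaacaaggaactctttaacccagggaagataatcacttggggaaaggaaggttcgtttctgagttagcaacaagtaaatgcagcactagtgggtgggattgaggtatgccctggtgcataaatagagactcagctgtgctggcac
REG4: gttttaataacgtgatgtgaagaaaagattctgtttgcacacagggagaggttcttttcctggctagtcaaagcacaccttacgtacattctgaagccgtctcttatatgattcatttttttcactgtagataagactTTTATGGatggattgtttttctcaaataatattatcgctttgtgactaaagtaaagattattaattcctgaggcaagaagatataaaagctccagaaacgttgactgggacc
SPINK4: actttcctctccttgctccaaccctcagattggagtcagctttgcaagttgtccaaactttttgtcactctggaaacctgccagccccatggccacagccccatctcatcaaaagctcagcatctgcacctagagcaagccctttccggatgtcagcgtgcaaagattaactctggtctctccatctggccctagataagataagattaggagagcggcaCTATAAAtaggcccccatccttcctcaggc
CLCA1: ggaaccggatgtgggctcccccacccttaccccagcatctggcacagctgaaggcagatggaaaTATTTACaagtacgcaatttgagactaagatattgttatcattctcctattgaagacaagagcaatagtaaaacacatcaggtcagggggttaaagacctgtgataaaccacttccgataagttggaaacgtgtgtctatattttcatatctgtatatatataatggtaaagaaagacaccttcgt
CLCA1 held TATTTAC 186 bases before its start, a match found in 2.39% of the 35116 promoters of this length. REG4 held TTTATNG 112 bases before its start, and SPINK4 held it on the opposite strand 30 bases before its start, a match found in 8.93% of promoters. On the strand shown the SPINK4 match reads CTATAAA. These are matches of sequence alone, and whether CDX or forkhead factors bind there was not tested. TGTTTAC, found in 2.98% of promoters, was in none of the 5 windows, and the AGR2 and FCGBP windows held none of the 3 motifs.

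With less STAU1, 7 of the 10 genes were higher in LS180 cells and 3 were lower. The highest fold changes were those of REG4 (2.53-fold), TFF1 (1.90-fold) and AGR2 (1.67-fold), while LYZ and CLCA1 were 2.50-fold and 7.57-fold lower. All 10 were called by edgeR's quasi-likelihood test (adjusted p under 0.05), in a comparison where 46.1% of 14073 genes were called, 23% higher and 23% lower. For all 10 the siSTAU1 and siCTRL libraries did not overlap in CPM, as was so for 36.7% of all genes on the higher and 36.9% on the lower side. CLCA1, with 4 and 3 counts in siSTAU1 libraries, passed the filter on low counts through the siCTRL libraries alone. Its part in these counts of genes is therefore a description. Their median log2 fold change was 0.41, against 0.00 for all genes tested. In bulk RNA, more cells of a secretory type and more RNA per cell cannot be told apart.

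**Figure D1:**
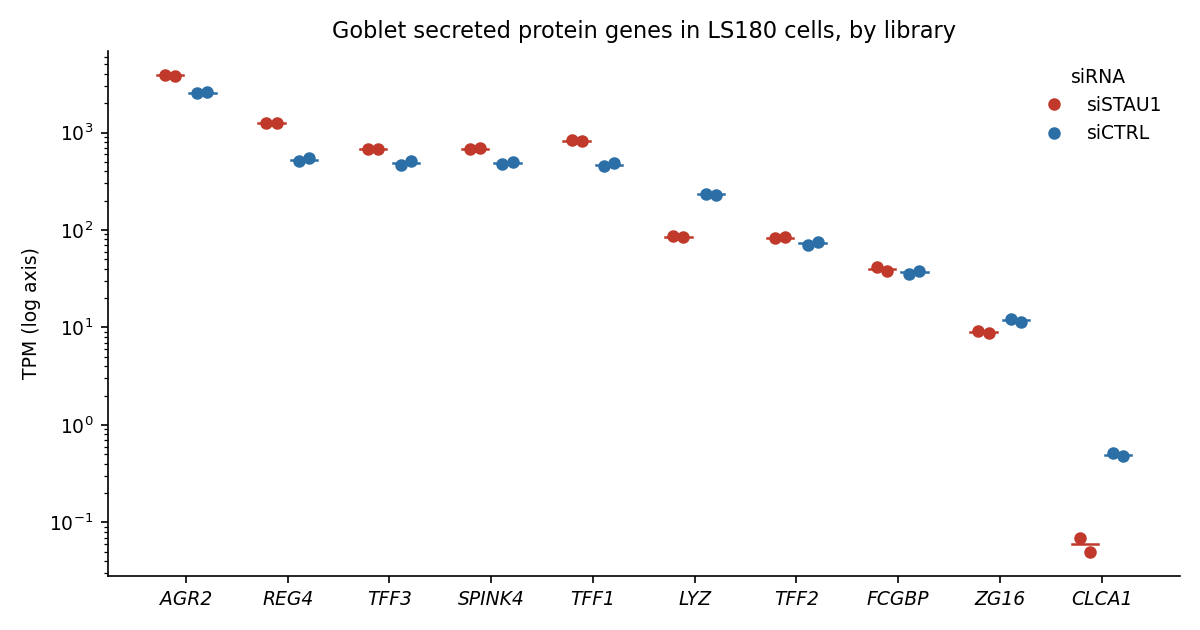
TPM (log axis) of the 10 genes in each siRNA library of LS180 cells, with siSTAU1 left of siCTRL for each gene, points for libraries and short lines for the mean of 2. AGR2 stood at 3927 and 3796 TPM in siSTAU1 against 2514 and 2575 TPM in siCTRL libraries, and LYZ and CLCA1 are the genes whose siSTAU1 points lie clearly below.

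Among the trefoil genes, TFF1 (ENSG00000160182), a peptide typical of gastric surface mucus, had 203 and 210 CPM in siSTAU1 and 104 and 113 CPM in siCTRL libraries. The log2 fold change of TFF1 was 0.93 (SE 0.0414; edgeR adjusted p = 3.35e-08). TFF3 (ENSG00000160180), the trefoil peptide of intestinal goblet cells, had 323 and 344 CPM in siSTAU1 and 228 and 235 CPM in siCTRL libraries. That was a log2 fold change of 0.53 (SE 0.0389; edgeR adjusted p = 1.24e-06). For all 3 trefoil genes both siSTAU1 libraries lay above both siCTRL libraries. TFF2 (ENSG00000160181), known from gastric mucous neck cells, had 27.4 and 29.4 CPM in siSTAU1 and 22.3 and 23.9 CPM in siCTRL libraries. For TFF2 the log2 fold change was 0.30 (SE 0.0703; edgeR adjusted p = 0.00442), a call lost without siCTRL library 1 (0.25, edgeR adjusted p = 0.0757). The 3 genes thus moved by unequal amounts, and the ratio of TFF1 to TFF3 in TPM was 1.23 and 1.2 in siSTAU1 libraries against 0.957 and 0.955 in siCTRL libraries. The ratio of TFF1 to TFF2 in TPM was 10.1 and 9.71 in siSTAU1 against 6.39 and 6.43 in siCTRL libraries.

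AGR2 (ENSG00000106541) was the most abundant of the 10 genes by TPM and had 2993 and 3108 CPM in siSTAU1 against 1809 and 1855 CPM in siCTRL libraries. Its log2 fold change was 0.74 (SE 0.0442; edgeR adjusted p = 2.79e-07). Among 19934 protein-coding genes ranked by TPM it stood at places 22 and 28 in siSTAU1 and at places 63 and 66 in siCTRL libraries. It held a nearly fixed part of the summed CPM of the 10 genes, 59.2% and 59.1% in siSTAU1 against 58.1% in both siCTRL libraries. The 10 genes together took 0.5015 and 0.5163% of all counts in siSTAU1 against 0.3164 and 0.3218% in siCTRL libraries. Most of that share was AGR2 and REG4, with means of 3051 and 1083 CPM in siSTAU1 and 1832 and 428 CPM in siCTRL libraries. The share is thus not a measure of all 10 genes, of which 3 were lower.

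REG4 (ENSG00000134193), whose product marks deep crypt secretory cells in the mouse colon, had 1057 and 1110 CPM in siSTAU1 against 420 and 436 CPM in siCTRL libraries. With a log2 fold change of 1.34 (SE 0.0405; edgeR adjusted p = 1.45e-09) it ranked 112 from the top of all genes tested. SPINK4 (ENSG00000122711) had 116 and 124 CPM in siSTAU1 and 77.4 and 80.7 CPM in siCTRL libraries, a log2 fold change of 0.60 (SE 0.045; edgeR adjusted p = 1.38e-06). Per length it stood at 673 and 693 TPM in siSTAU1 against 475 and 500 TPM in siCTRL libraries, close to TFF3 in both groups. FCGBP (ENSG00000275395 in this table) had 229 and 219 CPM in siSTAU1 and 193 and 198 CPM in siCTRL libraries. The log2 fold change of FCGBP was 0.20 (SE 0.0357; edgeR adjusted p = 0.000856), at a place where 73.2% of all genes were lower. In TPM the FCGBP libraries overlapped, with 41.4 and 37.7 in siSTAU1 against 35.7 and 37.8 in siCTRL.

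LYZ (ENSG00000090382), the antibacterial enzyme, went the other way, with 90.2 and 91.9 CPM in siSTAU1 against 232 and 222 CPM in siCTRL libraries. The log2 fold change of LYZ was -1.32 (SE 0.0374; edgeR adjusted p = 1.45e-09), and 0.746% of all genes had a lower one. Both siSTAU1 libraries lay below both siCTRL libraries. The 6 Paneth markers, a list without LYZ, summed to 171 to 176 CPM in siSTAU1 against 239 to 240 CPM in siCTRL libraries. Of these 6, 3 were tested and 1, PLA2G2A, was lower (-0.48), and their part in the LYZ result was not tested. LYZ shares 599 of its 1764 annotated exon bases with the antisense gene AC020656.1, which averaged 0 CPM in siSTAU1 and 0.0185 CPM in siCTRL libraries. No other of the 10 genes shares exon bases with another annotated gene (GENCODE 29).

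ZG16 (ENSG00000174992), a lectin that binds peptidoglycan of Gram-positive bacteria, had 21.7 and 21.4 CPM in siSTAU1 and 27.3 and 25.4 CPM in siCTRL libraries. Its log2 fold change was -0.29 (SE 0.0691; edgeR adjusted p = 0.00473), a call lost without siCTRL library 1 (-0.24, edgeR adjusted p = 0.079). CLCA1 (ENSG00000016490) was close to the limit of detection, with 4 and 3 counts in siSTAU1 against 31 and 25 counts in siCTRL libraries. Its log2 fold change of -2.92 (SE 0.478; edgeR adjusted p = 0.000424) put it at place 14067 of 14073, though DESeq2 gave it no adjusted p. Counts this small make its fold change the least precise of the 10.

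In order of TPM under siCTRL, AGR2 came first, REG4 followed with 513 and 543 TPM, and TFF3, SPINK4 and TFF1 overlapped between 449 and 513 TPM. LYZ (234 and 229 TPM), TFF2 (70.3 and 76.2), FCGBP (35.7 and 37.8), ZG16 (12.1 and 11.5) and CLCA1 (0.51 and 0.48) came after them. Under siSTAU1 the order of the upper genes changed. TFF1, at 831 and 821 TPM, stood above SPINK4 and TFF3, which still overlapped, while LYZ at 87.0 and 84.2 TPM overlapped TFF2 at 82.1 and 84.5 TPM. Among protein-coding genes LYZ stood at places 1681 and 1694 in siSTAU1 against places 581 and 619 in siCTRL libraries.

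The genes that make, regulate and modify mucus were followed from 4 lists, in a comparison where edgeR called 23% of all genes higher and 23% lower. Of 11 mucin genes tested, 6 were higher and 2 lower under siSTAU1 (median log2 fold change 0.32, against 0.00 for all genes). The gastric mucin gene MUC5AC (0.74), MUC6 (0.32) and the main intestinal gel mucin MUC2 (0.33) were among the higher ones and the membrane mucin MUC13 (-0.33) among the lower ones. Of 13 secretory lineage transcription factors tested, 8 were higher and 2 lower (median 0.35), with SPDEF at 0.87, KLF4 at 0.59, CREB3L1 at 0.41 and XBP1 at 0.30. The 2 lower ones were FOXA2 (-0.44) and SOX9 (-0.30). FOXA1 had 70.3 and 70.7 CPM in siSTAU1 and 63.3 and 64.5 CPM in siCTRL libraries, a log2 fold change of 0.14 (edgeR adjusted p = 0.027). Of 19 mucin folding and glycosylation genes, 9 were higher and 5 lower (median 0.22). Among them the AGR2 paralog AGR3 was at 0.73 and GALNT7 at 0.27, while the core glycan enzymes B3GNT6 and GCNT3 were at -2.21 and -0.62. Of 12 other secreted protein genes of goblet, Paneth and gastric cells that were tested, 3 were higher and 3 lower (median 0.07), close to the share of all genes. OLFM4 (-0.81), PLA2G2A (-0.48) and PIGR (-0.35) were the lower ones, and ZG16B (0.62) was among the higher ones.

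**Figure D2:**
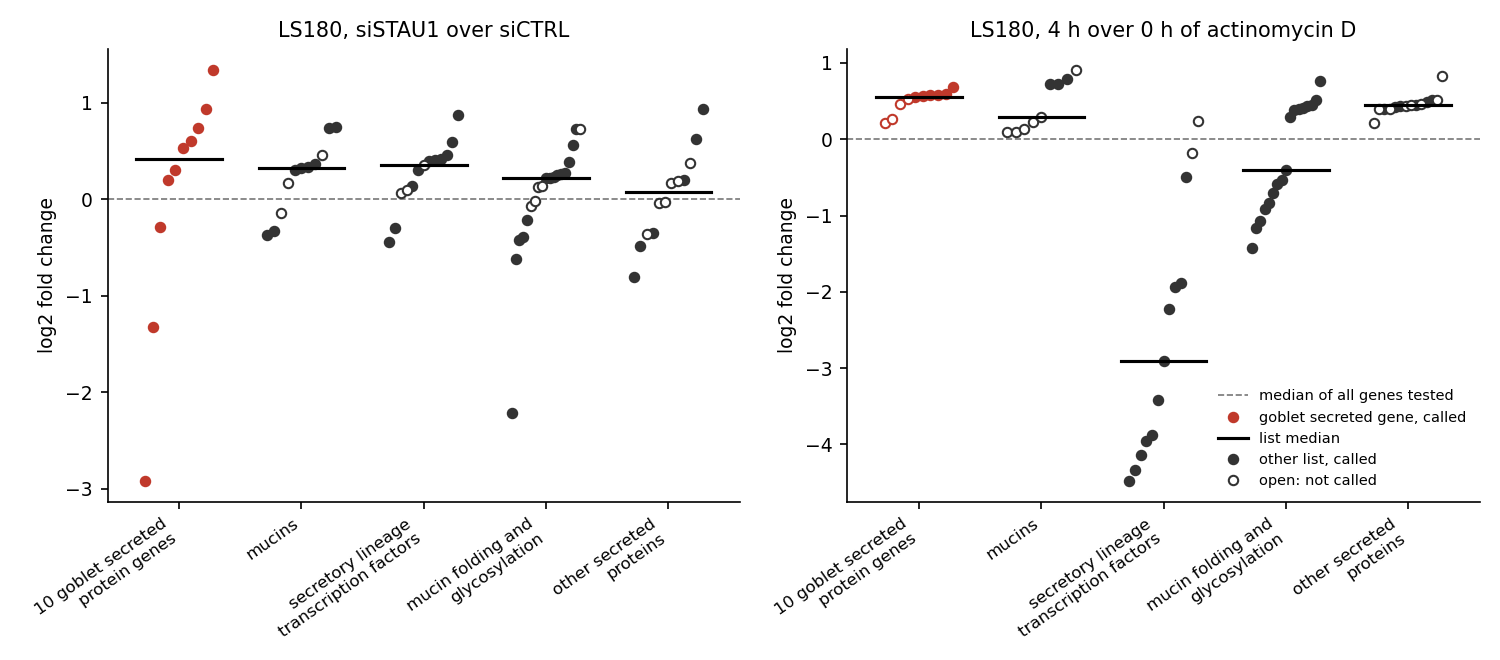
Log2 fold changes (vertical axes) of the 10 genes and of the 4 related lists in LS180 cells, for siSTAU1 over siCTRL (left) and for 4 h over 0 h of actinomycin D (right), 1 point per gene. Open points missed the edgeR threshold, black bars are list medians and the dashed line is the median of all genes tested. The 10 genes have medians of 0.41 and 0.56, while the transcription factors are at 0.35 on the left and at -2.91 on the right.

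The trefoil genes lie side by side on chromosome 21 (42311667 to 42366594, GRCh38), 54.9 kb from TFF3 through TFF2 to TFF1, all on the minus strand. The genes that flank this cluster were higher as well: ABCG1, a sterol transporter gene beyond TFF3, had a log2 fold change of 1.25 (edgeR adjusted p = 0.0052). TMPRSS3, a serine protease gene beyond TFF1, had one of 0.86 (edgeR adjusted p = 0.00863). Next to AGR2 (chromosome 7, 16791811 to 16833433, minus strand) TSPAN13 was at 0.74 and AGR3 at 0.73 (edgeR adjusted p = 6.52e-08 and 4.55e-06). REG4 (chromosome 1, 119794018 to 119811660, minus strand) has PHGDH, an enzyme gene of serine synthesis, and NOTCH2, a receptor gene, among its neighbours, at 0.41 and 0.24 (edgeR adjusted p = 5.03e-06 and 0.000215). None of the tested neighbours of FCGBP was called, with FBL at 0.01, PSMC4 at 0.09 and ZNF546 at -0.37 (edgeR adjusted p = 0.879, 0.0758 and 0.402). YEATS4 and CPSF6, the nearest genes on either side of LYZ (chromosome 12, 69348341 to 69354234, plus strand), were at -0.06 and -0.08 (edgeR adjusted p = 0.431 and 0.0965).

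Taking the 2 nearest protein-coding genes on each side of each of the 10 gave 32 other genes, of which 25 were tested. Of these, 14 were higher and 2 lower, with a median log2 fold change of 0.12, against 23% in each direction and 0.00 for all genes. The lower ones were AHR, the aryl hydrocarbon receptor gene beyond AGR3 (-0.14), and QPRT near ZG16 (-0.40). These neighbours were chosen after the members' values were known.

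Actinomycin D in LS180 cells showed how the 10 transcripts stood relative to all others once transcription was blocked. With TMM scaling, none of the 10 was called lower at 2 or 4 h. At 4 h 6 of the 10 were higher (AGR2, LYZ, REG4, SPINK4, TFF1 and TFF3), though none was called with ribosomal protein scaling. With TMM edgeR called 57.7% of 17256 genes at 4 h, 26.6% higher and 31.1% lower. At 2 h 3 were higher (LYZ, SPINK4 and TFF1), while edgeR with TMM called 37.4% of all genes, 13.5% higher and 23.9% lower. With ribosomal protein scaling none of the 10 was called at 2 h either. CPM after such a block are shares of the RNA that remains, so a higher share does not say that a transcript was made.

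**Figure D3:**
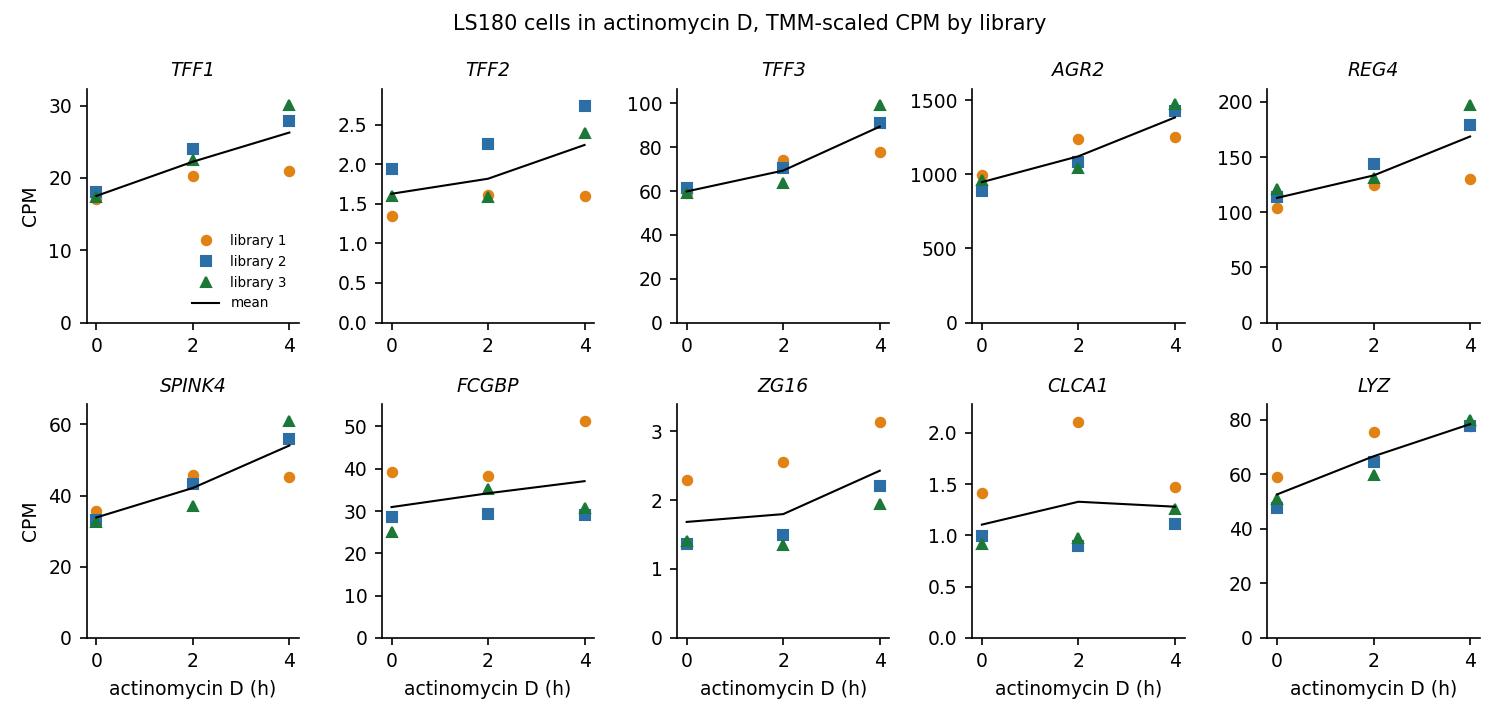
TMM-scaled CPM (each vertical axis from 0) of the 10 genes in LS180 cells at 0, 2 and 4 h of actinomycin D, 1 point per library with its number by shape and a line through the means. The means of all genes but CLCA1 are higher at each later time, and FCGBP, ZG16 and CLCA1 have their highest value in library 1 at each time.

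AGR2 had 995, 884 and 960 CPM at 0 h, 1234, 1085 and 1043 at 2 h, and 1248, 1429 and 1470 at 4 h. Its log2 fold change at 4 h over 0 h was 0.55 (SE 0.127; edgeR adjusted p = 0.00112), and the 4 h libraries did not overlap those at 0 h in CPM. Among all genes tested, 29.9% had no such overlap on the higher and 33.5% on the lower side at 4 h. In TPM the AGR2 libraries did overlap (512 to 679 at 0 h, 589 to 856 at 4 h), as did those of LYZ. Those of REG4, SPINK4, TFF1 and TFF3 did not. REG4 had 104, 114 and 121 CPM at 0 h, 125, 144 and 131 at 2 h, and 130, 179 and 197 at 4 h, a log2 fold change of 0.58 at 4 h (SE 0.105; edgeR adjusted p = 0.000114). At 4 h over 2 h REG4 was higher by 0.34 (edgeR adjusted p = 0.0195), a call lost without any one of LS180 2 h libraries 1 and 3 and LS180 4 h libraries 2 and 3 (edgeR adjusted p = 0.0669 to 0.184).

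TFF1 had 17.1, 18.1 and 17.3 CPM at 0 h, 20.2, 24.0 and 22.5 at 2 h, and 20.9, 27.8 and 30.1 at 4 h. The change was 0.59 at 4 h (SE 0.116; edgeR adjusted p = 0.000512). TFF3 had 58.9, 61.6 and 59.0 CPM at 0 h, 74.0, 70.5 and 63.6 at 2 h, and 77.9, 90.9 and 99.5 at 4 h, a change of 0.58 (SE 0.0854; edgeR adjusted p = 1.86e-05). For both genes every 4 h library lay above every 0 h library. TFF2, at 1.34 to 1.94 CPM at 0 h, 1.58 to 2.26 at 2 h and 1.60 to 2.74 at 4 h, overlapped between times and missed the threshold (0.46, edgeR adjusted p = 0.114). SPINK4, with the largest of the 10 changes, had 35.6, 33.2 and 32.7 CPM at 0 h, 45.9, 43.3 and 37.2 at 2 h, and 45.3, 55.8 and 61.1 at 4 h. It was higher by 0.68 at 4 h (SE 0.106; edgeR adjusted p = 0.000124). LYZ, lower under siSTAU1, was higher here, with 59.1, 47.7 and 51.1 CPM at 0 h, 75.6, 64.5 and 59.8 at 2 h, and 77.6, 77.7 and 80.0 at 4 h. Its change at 4 h was 0.57 (SE 0.107; edgeR adjusted p = 0.000139), and as for SPINK4 and REG4 the 4 h and 0 h libraries did not overlap in CPM. The 5 Paneth markers in this table summed to 108 to 153 CPM at 0 h, 121 to 178 at 2 h and 159 to 201 at 4 h.

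FCGBP, ZG16 and CLCA1 were not called at either time, and their libraries numbered 1 were the highest at 0, 2 and 4 h alike. FCGBP (ENSG00000090920 in this table) had 39.2 CPM in library 1 against 28.5 and 25.1 at 0 h, and 51.3 against 29.1 and 30.8 at 4 h. Its log2 fold change at 4 h was 0.26 (edgeR adjusted p = 0.321), or 0.28 without the libraries numbered 1 (edgeR adjusted p = 0.0037). ZG16 had 2.29 CPM in library 1 against 1.36 and 1.40 at 0 h, and 3.14 against 2.20 and 1.94 at 4 h, with a change of 0.53 (edgeR adjusted p = 0.142) or 0.70 without those libraries (edgeR adjusted p = 0.00579). For CLCA1, at 0.897 to 2.11 CPM in all 9 libraries, the change was 0.21 (edgeR adjusted p = 0.609). REG4 and TFF1 showed the opposite, with library 1 the lowest at each time.

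At 2 h TFF1 was higher by 0.35, LYZ by 0.34 and SPINK4 by 0.32 (SE 0.116, 0.107 and 0.106; edgeR adjusted p = 0.0303, 0.0179 and 0.034). These calls rested on single libraries. The count of 3 was 0 without LS180 0 h library 2, 0 without LS180 0 h library 3, 1 without LS180 2 h library 1 and 6 without LS180 2 h library 2. It was 7 without the libraries numbered 1 of every group. At 4 h the count stayed between 6 and 7 with any 1 LS180 library left out. For 4 h over 2 h 3 of the 10 were higher (REG4, SPINK4 and TFF3), where edgeR called 12.2% of all genes higher. None of the 10 was called there with total library size or ribosomal protein scaling. The count of 3 for 4 h over 2 h was 1 without LS180 2 h library 3, LS180 4 h library 2 or LS180 4 h library 3, or 5 without LS180 4 h library 1.

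The direction itself depended on the scaling. TMM factors of the LS180 4 h libraries were 1.00, 0.864 and 0.812, and the median of all genes moved by -0.20 with total library size and by -0.54 with scaling to the ribosomal protein genes. Under the last scaling the 10 genes lay between -0.33 and 0.11 and none was called at 4 h (DESeq2, with its own size factors, called 6). A scaling moves all genes together, so the distance to the median gene is 1 observation whichever is used. All 10 lay above that median at 4 h, by 0.21 to 0.68, and 9 of 10 did without LS180 4 h library 1 (lowest -0.01). At 2 h all 10 lay above it by 0.12 to 0.37, and 8 of 10 did without LS180 2 h library 1 (lowest -0.22). Together the 10 genes took 0.1206 to 0.1374% of all counts at 0 h, 0.1423 to 0.1606% at 2 h and 0.1603 to 0.1664% at 4 h. AGR2 made up 74 to 76.2% of their summed CPM in these libraries, so this share is mostly that of AGR2.

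**Figure D4:**
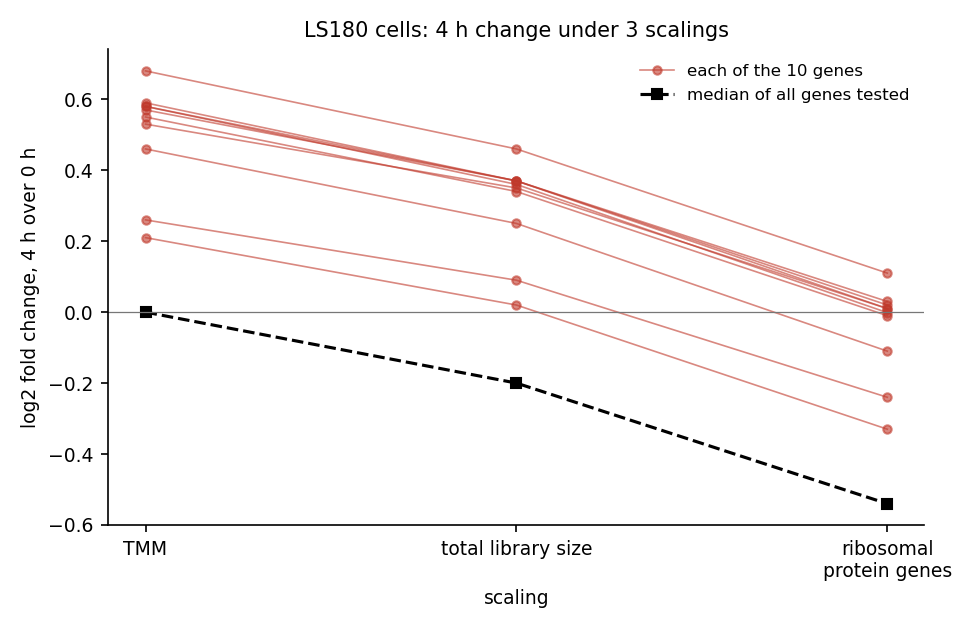
Log2 fold change at 4 h over 0 h of actinomycin D in LS180 cells (vertical axis) under 3 scalings, with a red line for each of the 10 genes and the dashed black line for the median of all genes tested. The scalings move the 10 lines and the median together, and with ribosomal protein scaling the 10 genes run from -0.33 to 0.11, on both sides of 0, with the median at -0.54.

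The related lists differed widely after 4 h. Of the 13 secretory lineage transcription factors 11 were lower and 0 higher, with a median log2 fold change of -2.91, against 0.56 for the 10 secreted protein genes and 0.00 for all genes. KLF4 (-3.95), HES1 (-3.87), SOX9 (-2.91) and FOXA1 (-3.42) were among them. Of 9 mucin genes 3 were higher (MUC2 0.79, MUC6 0.73 and MUC5AC 0.72) and 0 lower (median 0.29), where edgeR called 26.6% of all genes higher and 31.1% lower, the shares against which the next lists stand too. Folding and glycosylation genes were divided, with 8 of 17 higher, among them PDIA3 (0.51), and 9 lower, among them FUT2 (-1.42), GCNT3 (-1.16) and GCNT1 (-0.59) (median -0.40). Of 14 other secreted protein genes 6 were higher, among them LGALS4 (0.45), PLA2G2A (0.52) and ZG16B (0.43), and 0 lower (median 0.44).

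Over the 9 LS180 actinomycin D libraries, Pearson correlations of log2 CPM were computed between each of the 7 genes averaging at least 5 CPM at 0 h and 10446 genes, as a description. The 7 genes had a median correlation of 0.865 with each other and a lowest one of -0.250. The genes most like AGR2 were FAM162A (0.997), MRPL42 (0.995) and SEC11C (0.994). Most like REG4 were ANXA2 (0.994), AZGP1 (0.994) and S100P (0.993), and most like TFF1 were TMPRSS4 (0.997), PKM (0.992) and DBNL (0.989). All these libraries share the time course and its scaling, and across the 18 libraries of both lines the genes most like each of the 7 had correlations of 0.992 or higher, with both lines pooled.

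LS180 cells expressed all 10 genes at a higher level than HCT116 cells at 0 h, and edgeR called all 10, in a comparison where 76.3% of 17256 genes were called, 42.6% higher and 33.7% lower in LS180. The 8 genes with at most 10 counts in any HCT116 library passed the filter through LS180 libraries, so the count of 10 is a description. At 0 h AGR2 had 154725 counts in the 3 LS180 libraries and 10 in the 3 HCT116 libraries, all 10 of them in HCT116 library 1. REG4 had 18484 counts in LS180 and 10 in HCT116 libraries, spread as 4, 4 and 2. SPINK4, TFF2, ZG16 and CLCA1 had 5523, 264, 276 and 181 counts in LS180 and 0 in HCT116 libraries. With the HCT116 group set to a limit of 3 counts in sum, they were at least 1959-fold, 93.6-fold, 97.9-fold and 64.2-fold higher in LS180. TFF1 had 2851 counts in LS180 and 1 in HCT116 libraries, a ratio of 3033 (exact binomial 95% interval 544 to 119842), and TFF3 had 9755 and 1, a ratio of 10378 (1862 to 409951). These intervals and floors cover counting error only.

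**Figure D5:**
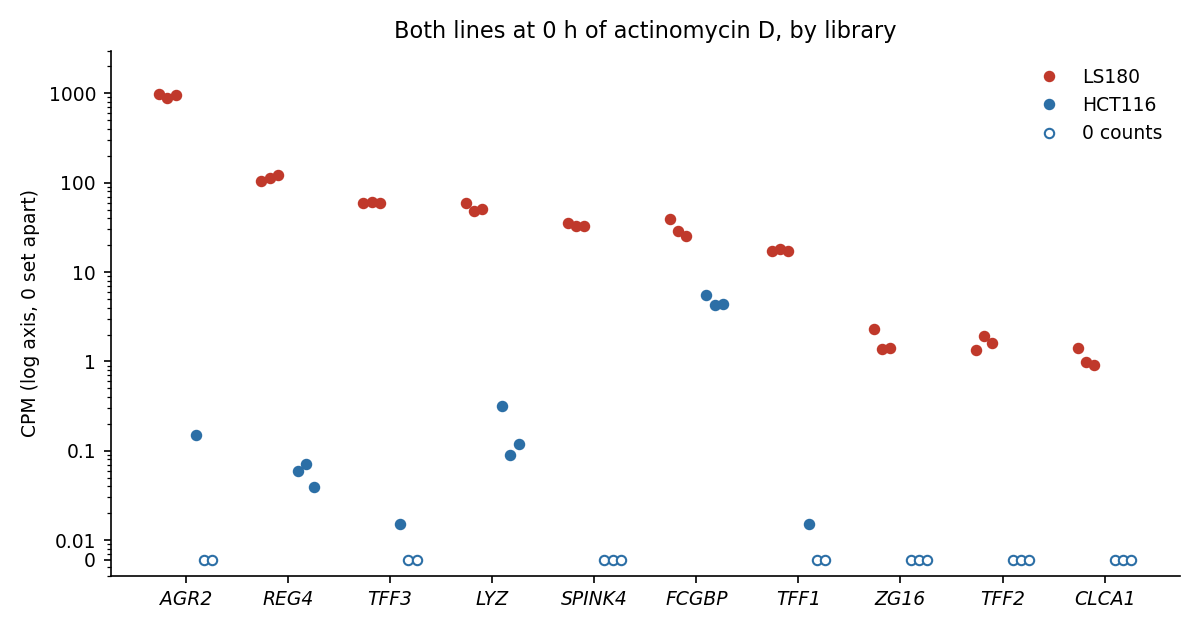
TMM-scaled CPM (log axis, with 0 drawn apart at the bottom) of the 10 genes at 0 h of actinomycin D, LS180 left of HCT116 for each gene and 1 point per library. FCGBP is the gene with the smallest gap, at 25.1 to 39.2 CPM in LS180 against 4.26 to 5.52 CPM in HCT116 libraries.

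FCGBP differed least between the lines and was the only one of the 10 above 1 CPM in HCT116 cells. It had 39.2, 28.5 and 25.1 CPM in LS180 against 5.52, 4.26 and 4.38 CPM in HCT116 libraries, a log2 fold change of 2.71 (SE 0.245; edgeR adjusted p = 8.87e-09). RSEM's effective length for FCGBP, a mean over its isoforms weighted by their estimated abundance, was 11257 to 12619 bases in LS180 and 16200 bases in each HCT116 library at 0 h. LYZ had 59.1, 47.7 and 51.1 CPM in LS180 against 0.314, 0.0891 and 0.118 CPM in HCT116 libraries, from 21, 5 and 6 counts, a ratio of 286 (203 to 419). Its fitted log2 fold change was 8.15, or 8.97 without HCT116 0 h library 1. FOXA1 itself averaged 38.6 ± 1.78 CPM in LS180 and 2.58 ± 0.52 CPM in HCT116 libraries (SD, n = 3 each). Of 9 mucin genes tested 8 were higher in LS180 and 1, MUC4, was lower, and of 13 secretory lineage transcription factors 10 were higher and 2 lower, one of them KLF4 (-1.85).

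By TPM, which allows for length, the order in LS180 at 0 h was AGR2 (512 to 679), SPINK4 (57.0 to 71.3), TFF3 (46.2 to 52.5) and REG4 (36.0 to 40.3). TFF1 (18.6 to 20.3) and LYZ (13.8 to 19.9) overlapped, as did TFF2 (1.07 to 1.34) and FCGBP (0.87 to 1.35). ZG16 (0.29 to 0.57) and CLCA1 (0.12 to 0.21) came last. Levels of this experiment and of the siRNA experiment come from different builds and RNA selections and were not compared.

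In HCT116 cells actinomycin D could be followed for FCGBP and LYZ alone, since the other 8 genes had between 0 and 10 counts per library. None of the 10 was called by edgeR at 2 h or at 4 h, where 31% and 49.9% of all genes were (at 4 h 26.2% higher and 23.7% lower), and none had an unadjusted p under 0.05. DESeq2 called 1 at 2 h (AGR2, log2 fold change -3.15, DESeq2 adjusted p = 0.039) and 0 at 4 h. The AGR2 counts behind that call were 10, 1 and 3 in the libraries numbered 1 at 0, 2 and 4 h and 0 in the other 6 libraries. FCGBP had 5.52, 4.26 and 4.38 CPM at 0 h, 5.51, 3.70 and 3.88 at 2 h, and 7.62, 4.61 and 4.5 at 4 h, with library 1 the highest at each time. Its log2 fold changes were -0.12 at 2 h and 0.24 at 4 h (SE 0.267 and 0.26; edgeR adjusted p = 0.796 and 0.477). LYZ had 5 to 21 counts per library at all times, with log2 fold changes of 0.01 and 0.28 (SE 0.459 and 0.435; edgeR adjusted p = 1 and 0.639).

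The difference between the lines in these changes, LS180 minus HCT116, was 0.26 at 2 h and 0.02 at 4 h for FCGBP (SE 0.343 and 0.34), and 0.33 and 0.29 for LYZ (SE 0.474 and 0.459). None of the 10 was called by edgeR, where 5.64% of genes were at 2 h (0.394% higher and 5.24% lower) and 13.7% at 4 h (1.33% higher). At 2 h 1 of the 10, AGR2, and at 4 h 0 had an unadjusted p under 0.05, and DESeq2 called 0 at both times. Without the libraries numbered 1, FCGBP was called at 2 h (0.61, edgeR adjusted p = 0.0114).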

How the data were processed

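RSEM gene tables of 22 libraries were used. The submitters' processing notes name cutadapt, STAR 2.7 and RSEM 1.3.1, with the build hg38 for the siRNA and hg19 for the actinomycin D libraries. Neither annotation release nor strand setting is given in the sources used here. The deposited expected counts are RSEM's estimates, in which reads that map to several genes are divided among them. The deposited TPM values are RSEM's, scaled by effective length. The deposited FPKM values were not used.

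Expected counts were rounded to whole numbers, filtered with filterByExpr and scaled by TMM. Each experiment was fitted on all its groups with edgeR 4.0.16 (quasi-likelihood, R 4.3.3), with Benjamini-Hochberg adjustment over all 14073 or 17256 genes and a threshold of 0.05. The fits had 2 and 12 residual degrees of freedom. Alternatives were DESeq2 1.42.0, other scalings and filters, an effective length offset, a replicate block and leaving out each library. Intervals of ratios are exact binomial at 95%. Likeness used log2(CPM + 0.5). Coordinates, neighbours and exon overlaps come from GENCODE 29. Every gene of the 10 was named in each comparison. From each related list up to 4 called genes with the smallest adjusted p were eligible. Some lower genes outside these were named as well. Some items are not reported here. The members and lists were chosen with earlier results of these data known.

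In HCT116, libraries with the same number deviated together (correlations of 0.183 to 0.577). The main fit did not pair them, and a replicate block was used as an alternative only. Libraries numbered 2 and 3 also correlated with each other (0.116 to 0.3), and those numbered 1 had negative correlations with both (-0.431 to -0.27). Deviations were taken from the mean of the 3 libraries of a group, so they sum to 0. Once the libraries numbered 1 differ from the rest, these signs follow from the centring. In LS180, libraries with the same number had correlations from -0.232 to 0.16 over all genes tested. Single genes such as FCGBP and REG4 still had library 1 at the same end at each time. With 2 libraries in each siRNA group the deviations are mirror images, so their correlation cannot show pairing or its absence.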

Additional observations from a re-analysis of the deposited data

How the results depend on the processing

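Of 890 values of 58 results, 749 kept direction and call, 36 lost the call, 54 gained it and 51 changed sign; the causes were not tested. The siRNA comparison and that of LS180 over HCT116 at 0 h changed no sign. For siSTAU1, DESeq2 called 9 of the 10 genes, and leaving out 1 library gave 8 to 10. The number of genes called over the whole table was 6482, against 4073 without siCTRL library 1 and 4321 without siCTRL library 2. For LS180 at 4 h over 2 h it was 5306, against 3358 without LS180 4 h library 2 and 3415 without LS180 4 h library 3. For HCT116 at 2 h it was 5346, against 3355 with total library size. For the line difference at 2 h it was 973, against 635 with the length offset, 470 with total library size, 373 with ribosomal protein scaling, 500, 459 and 453 without LS180 2 h library 2, HCT116 2 h library 2 and HCT116 2 h library 3, and 2678 without the libraries numbered 1. At 4 h it was 2359, against 4455 without LS180 4 h library 1 and 5677 without the libraries numbered 1.

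In LS180 at 2 h, where 3 of the 10 were called, the count was 6 with RLE size factors, 7 with no filter, 6 with the 1 CPM filter, 6 with DESeq2, 6 with only the groups compared in the fit and 0 with ribosomal protein scaling. Leaving out libraries gave 0 to 7. At 4 h, where 6 were called, no filter gave 9 and ribosomal protein scaling 0, and the removal of every library numbered 1, chosen after seeing the data, gave 9. For 4 h over 2 h, where 3 were called, the count was 5 with no filter, 5 with DESeq2, 0 with total library size, 0 with ribosomal protein scaling and 1 to 7 with libraries left out. Over all genes tested, the replicate numbers showed no common pairing of the LS180 libraries. The siRNA correlation (-0.0576) cannot show pairing or its absence with so few libraries per group. With the replicate block the counts were 4 at 2 h, 9 at 4 h, 5 for 4 h over 2 h and 10 for siSTAU1. CLCA1, not called at 4 h over 2 h, had a log2 fold change of 0.0073 there with the block, against -0.05 in the main fit. In HCT116 the block changed no count of the 10 genes called. HCT116 at 2 h had 1 call with no filter and 1 with DESeq2, and the line difference at 2 h had 1 with no filter and 0 to 1 with libraries left out.

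Signs changed with ribosomal protein scaling. At 2 h in LS180 it gave TFF2 -0.08, TFF3 -0.02, FCGBP -0.09 and ZG16 -0.15. At 4 h it gave TFF2 -0.11, AGR2 -0.01, REG4 -0.0015, FCGBP -0.24 and CLCA1 -0.33. For 4 h over 2 h it gave TFF1 -0.10, TFF2 -0.03, AGR2 -0.02, REG4 -0.0034, FCGBP -0.15 and LYZ -0.07. In HCT116 it gave LYZ -0.21 at 2 h, and FCGBP -0.15 and LYZ -0.10 at 4 h, and for the line difference at 4 h FCGBP -0.09. With total library size FCGBP was -0.0076 for 4 h over 2 h and -0.04 for the line difference at 4 h, and LYZ was -0.06 in HCT116 at 2 h. LYZ in HCT116 was -0.01 with no filter, -0.02 with the 1 CPM filter and -0.09 with the length offset at 2 h, and -0.11 with the offset at 4 h.

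With libraries left out, LS180 values ran from -0.24 to 0.38 for ZG16 and from -0.24 to 0.60 for CLCA1 at 2 h, and for 4 h over 2 h from -0.19 to 0.26 for FCGBP and from -0.26 to 0.45 for CLCA1. HCT116 values ran from -0.32 to 0.02 for FCGBP and -0.31 to 0.83 for LYZ at 2 h, and from -0.08 to 0.38 and -0.14 to 1.11 at 4 h. The line difference ran from -0.49 to 0.65 for LYZ at 2 h, and at 4 h from -0.13 to 0.47 for FCGBP and -0.53 to 0.85 for LYZ. Few counts limit the precision of CLCA1 under siSTAU1 (4 and 3 counts) and of LYZ in HCT116 (5 to 21 counts per library).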
